A study of Mus musculus with 18 samples.

Results

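Gene expression was compared between kidneys of mice 1 day after unilateral ischemia and reperfusion (UIR) and kidneys of sham-operated mice of the same day. UIR mice had the pedicle of the right kidney clamped for 45 minutes and then released, and the left kidney stayed in place. All mice were C57BL/6 and 11 weeks old, and the labels name no allele, transgene, sex or kidney side. Each group held 3 libraries, which the labels call biological replicates 1, 2 and 3, and values are always listed in that order. The series holds 18 libraries in all, and the 12 others are UIR and sham kidneys at 3 and 21 days, again 3 of each. Levels are in FPKM (fragments scaled to transcript length and to the mapped fragments of the library), and 14716 of 20825 genes reached an FPKM of 1 in 3 or more of the 18 libraries and were tested. Log2 folds are UIR over sham on log2(FPKM + 1), given ± SE, and they understate changes of genes with low FPKM. A gene is said to have risen or fallen where limma's test, two-sided and adjusted over all 14716 genes, gave an adjusted p under 0.05.

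Clamping a renal pedicle stops blood flow, and releasing it returns oxygen to cells that have run out of ATP. The proximal tubule, and its straight segment most of all, lives on fatty acid oxidation and is known as the main site of damage. Injured tubule cells lose their brush border, switch on stress and repair genes, and release chemokines that draw neutrophils. The comparison asks which transcripts had changed at this early stage.

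Of 14716 genes, 28.5% rose and 31.1% fell in UIR kidneys, with a median log2 fold of -0.025 over all genes, and for 61.3% the 3 UIR values all lay on 1 side of the 3 sham values. The number of members of a gene list that rose or fell is to be read against these shares. Rises of 8-fold or more were found for 56 genes and falls of that size for 31. FPKM sums per library ran from 472823 to 494910, and 12271 to 12578 genes reached 1 FPKM. The total number of fragments is unknown. The smallest values above 0 that a gene can take had relative values of 0.987 to 1.035 in the 6 libraries. They came from 93 genes, 14 to 26 of them in each library, whose values were required to lie close together. For that reason they cannot show how far the depths differed.

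UIR replicate 3 stood apart from the other two UIR libraries before any gene is considered. A principal component with 79.5% of the variance separated UIR from sham kidneys, and the next, with 9.4%, placed UIR replicate 3 at -32.68 and the other UIR libraries at 21.52 and 11.59. Of 458 genes with a UIR library at least 2-fold from the median of its group, UIR replicate 3 was that library for 299. The osteopontin gene Spp1 had 8678, 7666 and 21488 FPKM in UIR kidneys, against 1993, 1666 and 2207 FPKM in sham kidneys. Clu, which encodes the secreted chaperone clusterin, had 1838, 2014 and 5177 FPKM in UIR kidneys, against 645, 566 and 605 FPKM in sham kidneys. Egf, a growth factor of the distal nephron, had 107, 102 and 17.5 FPKM in UIR kidneys, against 81.1, 96.3 and 90.3 FPKM in sham kidneys. In UIR replicate 3 both injury transcripts were therefore well above, and Egf well below, the other UIR libraries. Without that library 8703 genes passed the threshold instead of 8770, and for many of the genes described below its value is given beside the result.

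The tissue matched its label. Umod, the urinary protein of the thick ascending limb, had 1347, 988 and 982 FPKM in UIR kidneys, against 806, 909 and 848 FPKM in sham kidneys. Kap, an androgen-regulated transcript of the mouse proximal tubule, had 10460.03, 9591 and 7089.8 FPKM in UIR kidneys, against 26791, 18131 and 23770.2 FPKM in sham kidneys. Kap fell (log2 fold -1.34, limma adjusted p = 0.015), although not without UIR replicate 3 or without sham replicate 1 (log2 folds -1.17 and -1.22). Among transcripts that define neighbouring tissues, Adipoq of fat had at most 0.11 FPKM in any of the 18 libraries, Cyp11b1 of the adrenal cortex 0.08 and Ckm of skeletal muscle 0.05. The summed level of the fat list was nevertheless 165 to 222 FPKM in UIR kidneys of day 1, against 66.0 to 90.1 FPKM in day-1 sham kidneys. Of its 6 tested genes 2 rose and 4 fell, or 1 rose without sham replicate 1. Most of that sum was Fabp4, a fatty acid-binding protein that endothelial cells and macrophages also make, with 134, 192 and 164 FPKM in UIR kidneys, against 49.2, 36.8 and 55.7 FPKM in sham kidneys (log2 fold 1.78 ± 0.27, limma adjusted p = 3.4e-05). The sum of the skeletal muscle list was 7.42 to 23.4 FPKM in UIR kidneys of day 1 and 6.83 to 11.3 FPKM in day-1 sham kidneys, against 36.0 to 50.8 FPKM in day-3 sham kidneys, and Pvalb, which distal tubule cells also make, gave most of it at day 1. The part of these tissues in the results was not tested. In bulk tissue, fewer cells of a type and less RNA per cell cannot be told apart.

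**Figure D1:**
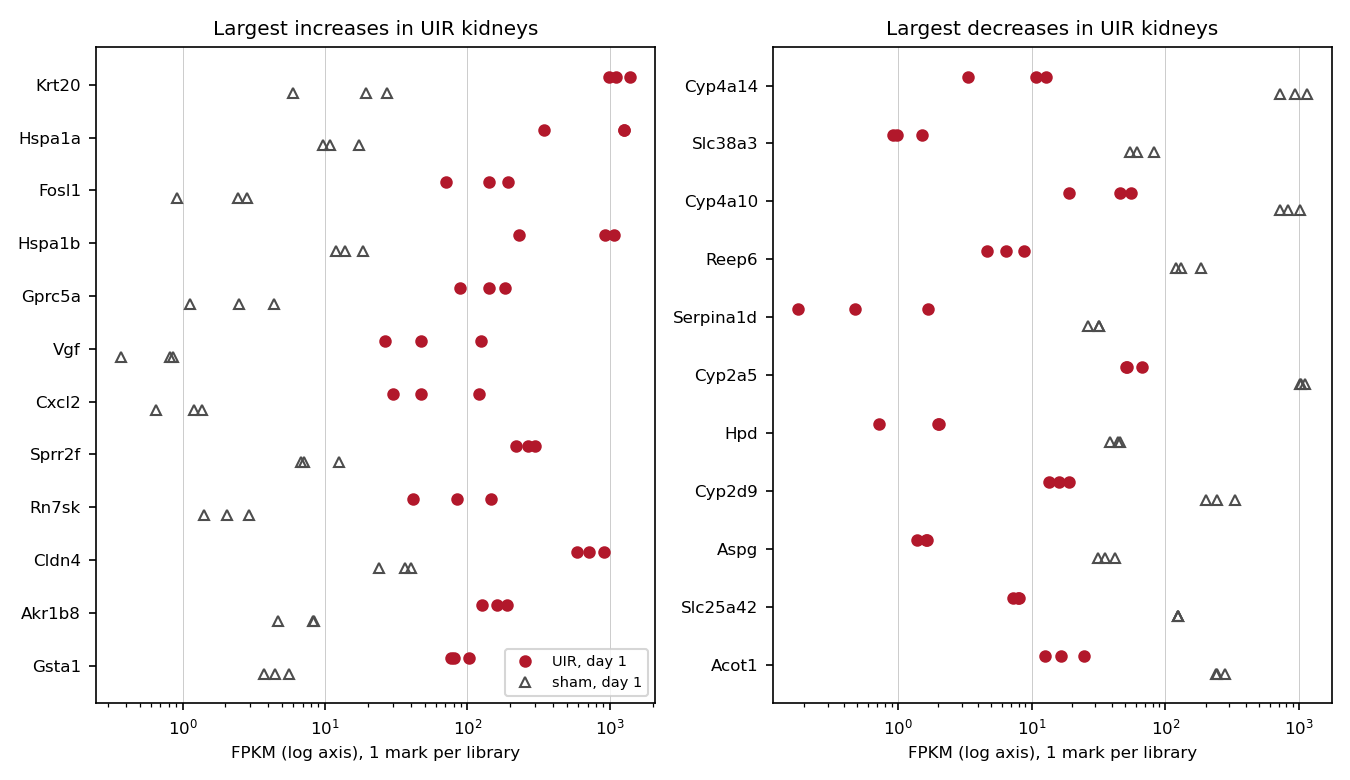
FPKM on a log axis for the 12 genes with the largest increases (left) and 11 of the 12 with the largest decreases (right), 1 mark per library, UIR as filled circles above sham as open triangles. The groups do not overlap for any gene shown, which was a condition of the choice, and Serpina1d, Vgf, Hspa1b and Cxcl2 show the widest ratio of highest to lowest UIR kidney.

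The largest increases joined transcripts of stressed epithelium, chaperones and neutrophil attraction. Krt20, a keratin that healthy kidney tubules hardly make, had 1113, 1374 and 993 FPKM in UIR kidneys, against 19.5, 5.96 and 27.4 FPKM in sham kidneys. Cldn4, a claudin of the distal tubule's tight junctions, had 585, 906 and 709 FPKM in UIR kidneys, against 36.5, 24.1 and 40.4 FPKM in sham kidneys. Gprc5a, an orphan receptor induced by retinoic acid, had 142, 182 and 88.8 FPKM in UIR kidneys, against 2.48, 1.13 and 4.37 FPKM in sham kidneys. For each of these 3 genes every UIR kidney was far above every sham kidney. Their log2 folds were 6.17, 4.41 and 5.28 (limma adjusted p of 3.8e-09, 2.0e-10 and 6.6e-10), with 5.58 for Krt20 without sham replicate 2. Vgf, which encodes a secreted neuropeptide precursor, had 47.2, 26.4 and 124 FPKM in UIR kidneys, against 0.86, 0.37 and 0.82 FPKM in sham kidneys, and its fold of 5.04 dropped to 4.45 without UIR replicate 3. Akr1b8, an aldo-keto reductase, had 126, 162 and 189 FPKM in UIR kidneys, against 8.28, 4.65 and 8.4 FPKM in sham kidneys (log2 fold 4.32 ± 0.17, limma adjusted p = 8.8e-11). Gsta1, a glutathione transferase with near-identical family members, had 81, 76.5 and 102 FPKM in UIR kidneys, against 4.43, 3.76 and 5.6 FPKM in sham kidneys (log2 fold 3.97 ± 0.32, limma adjusted p = 5.2e-08). Rn7sk, the noncoding 7SK RNA that holds the elongation factor P-TEFb inactive, had 146, 84.4 and 41.5 FPKM in UIR kidneys, against 1.42, 2.95 and 2.05 FPKM in sham kidneys (log2 fold 4.72 ± 0.33, limma adjusted p = 1.0e-08). The Rn7sk values spread widely among UIR kidneys and stayed apart from the sham values.

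The largest decreases were led by enzymes of fatty acid and amino acid metabolism. Cyp4a14, a fatty acid omega-hydroxylase, had 12.9, 10.8 and 3.34 FPKM in UIR kidneys, against 713, 922 and 1132 FPKM in sham kidneys. Slc38a3, a glutamine transporter, had 1.51, 0.98 and 0.92 FPKM in UIR kidneys, against 54.1, 81.9 and 61.4 FPKM in sham kidneys (log2 fold -4.96 ± 0.29, limma adjusted p = 1.8e-09). The sham kidneys were far above all UIR kidneys for both genes, and the log2 fold of Cyp4a14 was -6.67 (limma adjusted p = 7.2e-09). Hpd, an enzyme of tyrosine breakdown, had 2.02, 2 and 0.72 FPKM in UIR kidneys, against 45.7, 38.6 and 44.3 FPKM in sham kidneys (log2 fold -4.13 ± 0.26, limma adjusted p = 3.3e-09). Aspg, an asparaginase, had 1.66, 1.4 and 1.63 FPKM in UIR kidneys, against 35.6, 31.5 and 42.2 FPKM in sham kidneys (log2 fold -3.86 ± 0.21, limma adjusted p = 1.1e-09). Slc25a42, the mitochondrial carrier of coenzyme A, had 8.08, 7.97 and 7.28 FPKM in UIR kidneys, against 124, 123 and 125 FPKM in sham kidneys (log2 fold -3.83 ± 0.10, limma adjusted p = 5.0e-13). Cyp2d9, a male-predominant steroid hydroxylase in mice, had 13.4, 19.1 and 16 FPKM in UIR kidneys, against 244, 202 and 328 FPKM in sham kidneys (log2 fold -3.90 ± 0.24, limma adjusted p = 2.6e-09). The spread within each group was small beside these differences.

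Sham kidneys of day 1 were themselves unlike sham kidneys of days 3 and 21, so UIR kidneys of day 1 were also set against the 6 later sham libraries. In that comparison 39.6% of genes were higher and 32% lower. The same UIR libraries enter both comparisons. In all, 3871 genes rose against both controls and 3490 fell against both. A further 1143 were called only against day-1 sham, 2901 only against later sham, and 266 were called in opposite directions. Among 1149 list genes tested, 351 rose and 288 fell against both, and 37 were called in opposite directions, 31 of them lower against day-1 sham and higher against later sham.

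Fgg, which encodes the gamma chain of fibrinogen, had 43.3, 46.5 and 179.9 FPKM in UIR kidneys at day 1, against 487, 199 and 297 in sham kidneys at day 1, 3.03, 3.79 and 3.03 at day 3 and 6.93, 5.18 and 5.31 at day 21. Its log2 fold was -2.08 against day-1 sham and 3.75 against later sham (limma adjusted p of 0.00095 and 3.5e-07), and -2.74 against day-1 sham without UIR replicate 3. Hmox1, the heme-degrading oxygenase, had 294, 197 and 122 FPKM in UIR kidneys at day 1, against 603, 251 and 358 in sham kidneys at day 1, 14.9, 26.4 and 15.4 at day 3 and 25.3, 26 and 28.2 at day 21 (log2 folds -0.97 and 3.07). Both transcripts were on average highest in sham kidneys of day 1 and lowest in the later sham kidneys, with overlapping day-1 groups for Hmox1. The fall of Hmox1 against day-1 sham was lost without UIR replicate 3 (-0.65) and without sham replicate 1 (-0.64). Pdk4, the kinase that closes pyruvate dehydrogenase, had 264, 209 and 202 FPKM in UIR kidneys at day 1, against 262, 171 and 291 in sham kidneys at day 1, 4.08, 8.13 and 5.1 at day 3 and 2.73, 4.62 and 5.04 at day 21. Its log2 fold was -0.07 against day-1 sham, with overlapping groups, and 5.29 against later sham (limma adjusted p = 3.4e-11). The lipid droplet protein Plin2 likewise had log2 folds of 0.10 and 4.82, and the circulating growth factor Gdf15 of 0.35 and 4.31. Gdf15 was called against day-1 sham without UIR replicate 2 (0.62).

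**Figure D2:**
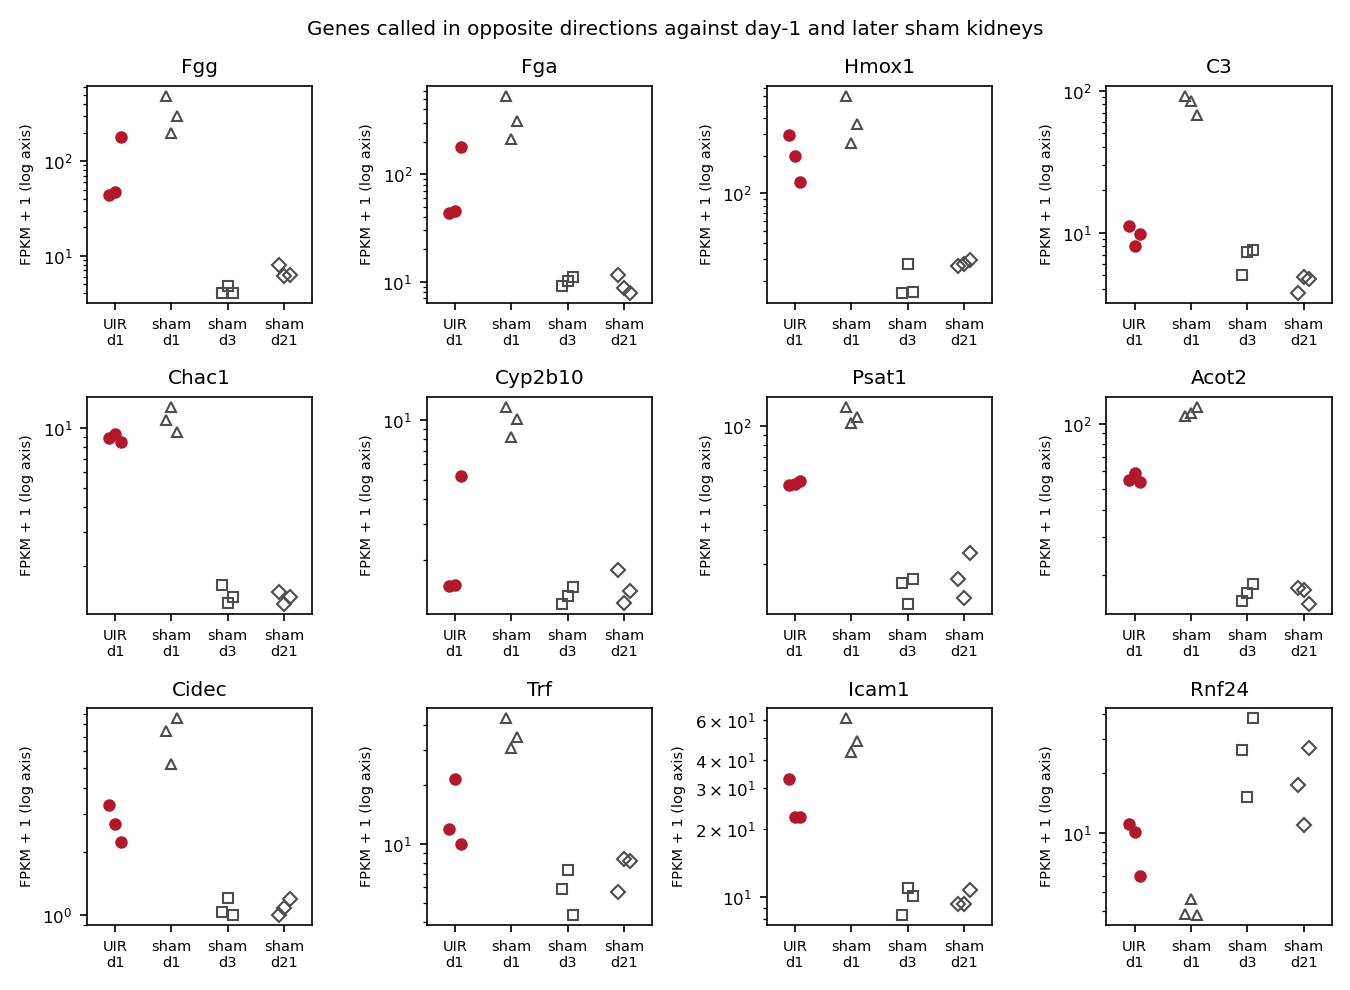
FPKM + 1 on a log axis for the 12 list genes with the widest gap between their folds against the 2 sham controls, 1 mark per library, with UIR kidneys of day 1 at left and sham kidneys of days 1, 3 and 21 to their right. Except for Rnf24, whose order is the reverse, the sham kidneys of day 1 lie on average above the UIR kidneys and the later sham kidneys below them.

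Epithelial keratins and cornified envelope proteins, which stiffen stressed epithelia, rose as a group. Of 18 tested members 16 rose and 1 fell, with a median log2 fold of 1.71. Krt19, a keratin of simple ducts, had 58.8, 88.4 and 54.7 FPKM in UIR kidneys, against 4.75, 3.19 and 5.86 FPKM in sham kidneys (log2 fold 3.61 ± 0.20, limma adjusted p = 1.0e-09). Sprr2f and Sprr2g, small proline-rich proteins that cross-link into cornified envelopes, had log2 folds of 4.78 and 3.53, and they may share reads. Evpl, which encodes the desmosome-linked envoplakin, fell (-1.63). Against later sham 17 members rose and Evpl again fell, and 2 fell against day-1 sham without sham replicate 2.

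Among 24 secreted and surface markers of tubular injury, 17 rose and 2 fell, with a median of 1.98. Lcn2, which encodes the siderophore-binding protein NGAL, had 2357, 1486 and 3001 FPKM in UIR kidneys, against 188, 102 and 216 FPKM in sham kidneys. Plaur, the urokinase receptor, had 231, 225 and 137 FPKM in UIR kidneys, against 13.7, 9.43 and 13.3 FPKM in sham kidneys. Anxa2, a membrane-binding annexin, had 229, 388 and 418 FPKM in UIR kidneys, against 31.5, 26.2 and 29.9 FPKM in sham kidneys. UIR kidneys exceeded sham kidneys in all libraries for these 3 genes, by log2 folds of 3.76, 3.90 and 3.47 (limma adjusted p of 4.8e-07, 1.2e-09 and 1.4e-08). Havcr1, the kidney injury molecule KIM-1, had 71.5, 106 and 307 FPKM in UIR kidneys, against 47.3, 18.5 and 26.8 FPKM in sham kidneys. Its UIR values were above the sham values but spread widely, with UIR replicate 3 highest, and its log2 fold of 2.17 (limma adjusted p = 0.0034) was the tenth largest in this list, with 1.56 without UIR replicate 3. Fabp1, a fatty acid-binding protein of the proximal tubule, fell (-1.67), as did the plasma ferroxidase Cp (-0.93), and against later sham Fabp1 was not called (-0.15) and Cp was higher (1.06).

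**Figure D3:**
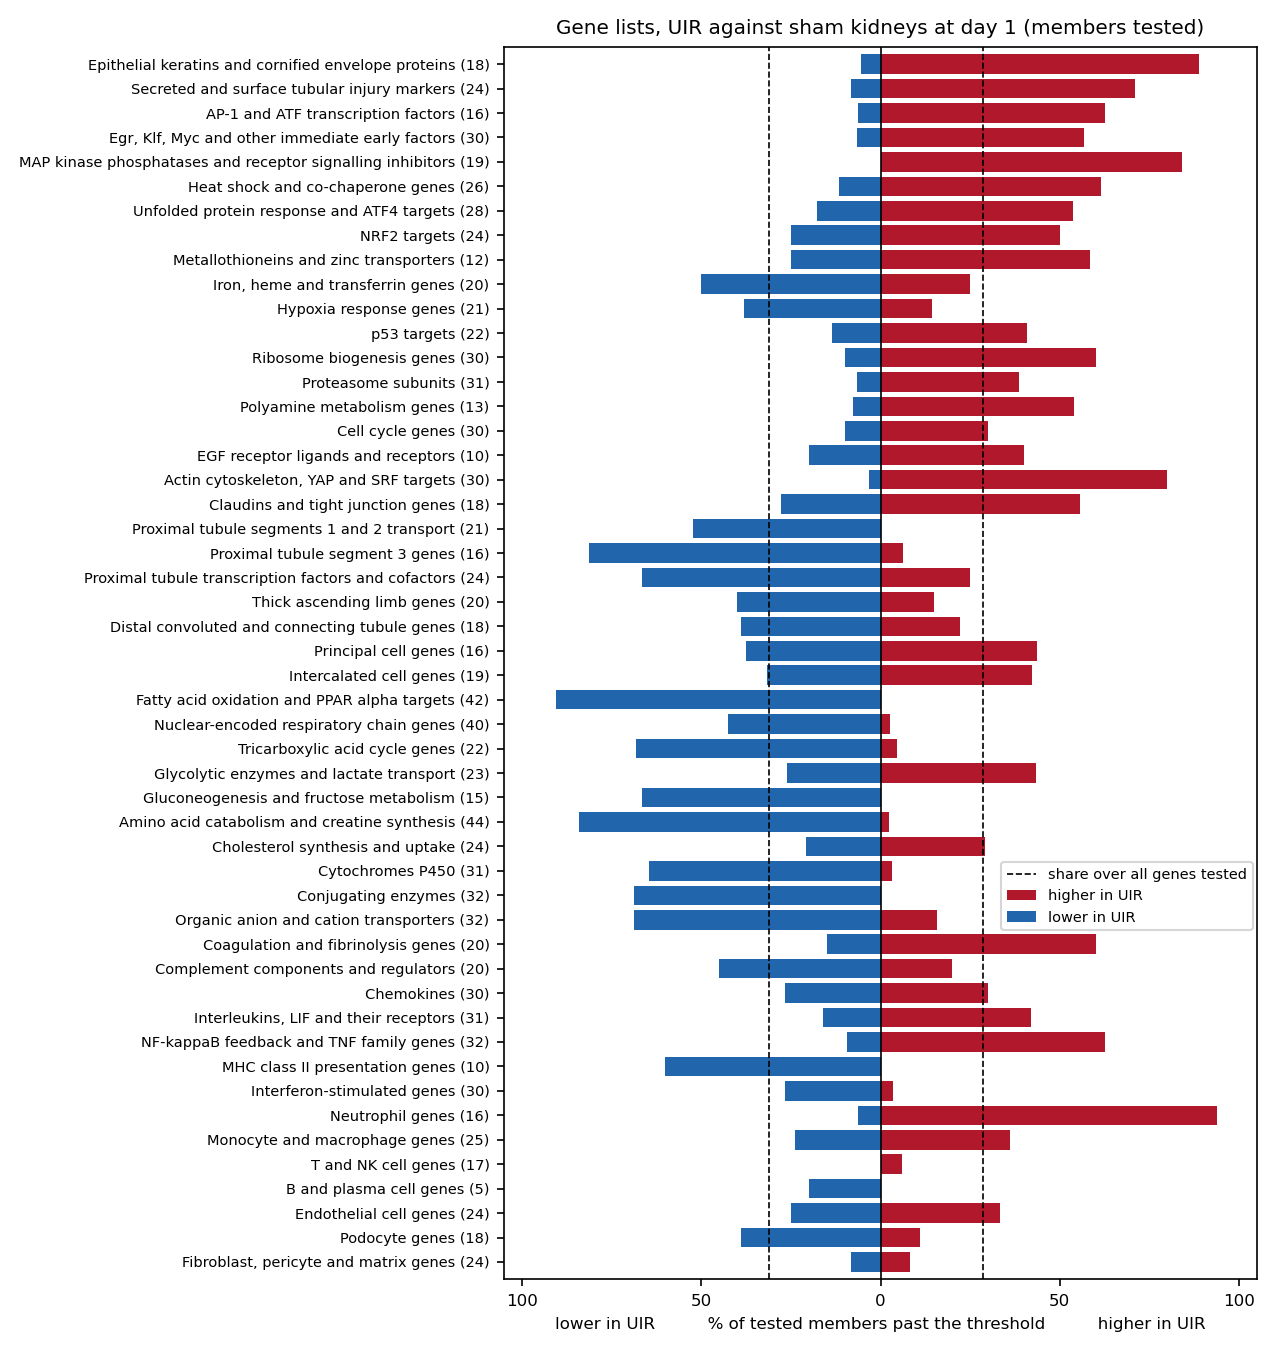
Percent of tested members of each gene list that passed the threshold, higher in UIR kidneys to the right and lower to the left, with the number of members tested in parentheses and dashed lines at the shares over all genes tested (28.5% higher, 31.1% lower). Neutrophil, keratin, signalling inhibitor and actin lists reach furthest to the right, and fatty acid oxidation, amino acid catabolism and straight-segment lists furthest to the left.

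Transcription factors of the immediate early response were high at day 1. Of 16 AP-1 and ATF factors, which bind DNA as pairs at stress-induced genes, 10 rose and 1 fell (median 1.36). The single fall was lost without sham replicate 3. Fosl1, an AP-1 subunit, had 193, 142 and 70.4 FPKM in UIR kidneys, against 2.84, 0.91 and 2.47 FPKM in sham kidneys (log2 fold 5.42 ± 0.28, limma adjusted p = 6.5e-10). Atf3, a stress-induced repressor of the ATF family, had 160.1, 84 and 41.7 FPKM in UIR kidneys, against 9.35, 16.4 and 10.3 FPKM in sham kidneys (log2 fold 2.72 ± 0.33, limma adjusted p = 4.1e-06). Both were apart from sham in every library, with UIR replicate 3 the lowest of the UIR kidneys for both. Fosb, another AP-1 subunit, rose by 2.56 and the small Maf protein Maff by 1.83 on the log2 scale. Of 30 Egr, Klf, Myc and related factors 17 rose and 2 fell (median 0.71), while 4 fell without UIR replicate 1 and 1 fell without UIR replicate 2, sham replicate 1 or sham replicate 3. Klf6, a zinc-finger factor induced by injury, had 409, 351 and 205 FPKM in UIR kidneys, against 26.4, 27.5 and 32.1 FPKM in sham kidneys (log2 fold 3.39 ± 0.18, limma adjusted p = 6.3e-10), and its relative Klf5 rose by 3.01. Runx1, known from blood cell development, had 8.06, 11.5 and 7.57 FPKM in UIR kidneys, against 0.42, 0.23 and 0.5 FPKM in sham kidneys (log2 fold 2.85 ± 0.14, limma adjusted p = 3.8e-10). Klf15, a factor of podocytes and of amino acid metabolism, fell (log2 fold -2.37 ± 0.20, limma adjusted p = 6.7e-08). Klf9 also fell (-0.32), but not without sham replicate 1, sham replicate 3 or UIR replicate 2 (log2 folds -0.31, -0.23 and -0.21). Myc, with overlapping groups, had a log2 fold of 0.27 against day-1 sham and 3.64 against later sham, and the AP-1 subunit Fos had 1.09 and 3.19. Fos was called against day-1 sham without UIR replicate 3 (1.43) or sham replicate 3 (1.66).

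Inhibitors of the same signalling pathways rose with them. Of 19 MAP kinase phosphatases and receptor signalling inhibitors, 16 rose and 0 fell by limma's adjusted test (0 at an unadjusted p under 0.05), with a median of 1.09. Dusp5, a nuclear phosphatase of ERK, had 66.4, 62.1 and 33 FPKM in UIR kidneys, against 4.4, 3.23 and 3.46 FPKM in sham kidneys (log2 fold 3.49 ± 0.22, limma adjusted p = 4.5e-09). Socs3, which blocks cytokine receptors that signal through STAT3, had 80.5, 94.5 and 53 FPKM in UIR kidneys, against 12.4, 4.83 and 15.1 FPKM in sham kidneys (log2 fold 2.79 ± 0.29, limma adjusted p = 6.1e-07). No UIR kidney overlapped the sham kidneys for either gene. Dusp10 and Dusp1, phosphatases of the stress kinases JNK and p38, had log2 folds of 2.67 and 2.62. Errfi1, an inhibitor of the EGF receptor and the most abundant member, was not called (0.37), although it was without UIR replicate 3 or sham replicate 3 (0.53 and 0.63). Among 10 EGF receptor ligands and receptors 4 rose and 2 fell, or 1 fell without any 1 of UIR replicates 1 and 2 and sham replicates 2 and 3. Areg, the ligand amphiregulin, had 10.2, 13 and 3.73 FPKM in UIR kidneys, against 0.41, 1.69 and 0.26 FPKM in sham kidneys (log2 fold 2.42 ± 0.34, limma adjusted p = 1.5e-05), and all 6 later sham libraries listed it at 0. Hbegf, a membrane-anchored ligand, had 158, 97.8 and 54.5 FPKM in UIR kidneys, against 15.2, 30.1 and 22.1 FPKM in sham kidneys (log2 fold 2.08 ± 0.30, limma adjusted p = 2.3e-05). Egf itself had a log2 fold of -0.61 with overlapping groups, and of 0.23 without UIR replicate 3. Nrg1, a ligand of ErbB receptors, fell (-0.76) and was higher against later sham (1.22), and the receptor Erbb4 fell by a small amount (-0.40) that was lost without either UIR replicate 1 or 2 or sham replicate 2 or 3 (-0.30, -0.26, -0.34 and -0.40).

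Heat shock proteins, which keep damaged proteins from clumping, are switched on by the factor HSF1 through heat shock elements in their promoters. Of 26 chaperone and co-chaperone genes 16 rose and 3 fell (median 0.91), or 1 fell without sham replicate 2. Hspa1a, the inducible HSP70, had 1256, 1248 and 344 FPKM in UIR kidneys, against 10.8, 9.61 and 17.3 FPKM in sham kidneys. Hspa1b, its near-identical copy, had 928, 1069.8 and 231 FPKM in UIR kidneys, against 12, 13.8 and 18.4 FPKM in sham kidneys, and the division of reads between these copies is uncertain. Cryab, the small heat shock protein alpha-B crystallin, had 407, 907 and 384 FPKM in UIR kidneys, against 65.4, 56.7 and 60.8 FPKM in sham kidneys (log2 fold 3.08 ± 0.30, limma adjusted p = 3.0e-07). The UIR kidneys were above all sham kidneys in each case, with UIR replicate 3 well below the others for both HSP70 copies. The log2 folds of Hspa1a and Hspa1b were 5.95 and 5.30, and 6.57 and 6.00 without UIR replicate 3. Hsp90aa1, the inducible HSP90, had 779, 1244 and 673 FPKM in UIR kidneys, against 138, 152 and 145 FPKM in sham kidneys (log2 fold 2.57 ± 0.22, limma adjusted p = 8.2e-08). Hspb1, which encodes HSP27, had 336, 377 and 229.8 FPKM in UIR kidneys, against 72.2, 37.2 and 59.98 FPKM in sham kidneys (log2 fold 2.48 ± 0.32, limma adjusted p = 6.2e-06). The constitutive HSP70 Hspa8, the most abundant member, had 2591, 2031 and 1228 FPKM in UIR kidneys, against 1433, 1736 and 1386 FPKM in sham kidneys, and was called only without UIR replicate 3 (log2 folds 0.30 with and 0.60 without it). Hsf1, the factor itself, fell (log2 fold -0.70 ± 0.10, limma adjusted p = 2.3e-05). The HSP90 co-chaperone Fkbp4 also fell (-0.50), although not without sham replicate 2 (-0.37).

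Promoters of the heat shock members that rose by a log2 fold of at least 2 were read from the RefSeq table of build GRCm38.p6, over bases -150 to -1 from the start, to show what sequence lies before genes that moved together. The motif searched was GAANNTTC, which reads the same on both strands and is the core of a heat shock element, and matches are in capitals. Hspa1a on chr17:34972157-34972306 (minus strand), Hspa1b on chr17:34959239-34959388 (minus strand) and Hspb1 on chr5:135887769-135887918 (plus strand) are shown, and Cryab and Hsp90aa1 are named only.
Hspa1a: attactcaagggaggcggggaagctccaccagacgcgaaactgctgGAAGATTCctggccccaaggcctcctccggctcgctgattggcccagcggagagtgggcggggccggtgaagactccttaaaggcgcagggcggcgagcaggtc
Hspa1b: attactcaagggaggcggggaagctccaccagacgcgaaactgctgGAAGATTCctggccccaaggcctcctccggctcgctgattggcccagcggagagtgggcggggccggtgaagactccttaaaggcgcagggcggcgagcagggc
Hspb1: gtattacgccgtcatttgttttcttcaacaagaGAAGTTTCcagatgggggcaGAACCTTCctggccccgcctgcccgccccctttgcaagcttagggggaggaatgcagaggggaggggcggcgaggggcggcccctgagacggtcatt
The Hspa1a and Hspa1b windows differ at 1 of 150 positions and each hold 1 match, while that of Hspb1 holds 2. The motif was found in 3.9% of the 32851 promoter windows of the table. Counted by gene, it was in a promoter of 398 of the 11448 tested genes with an entry (3.5%). It was in a promoter of 7 of the 21 heat shock list members with an entry, namely 6 of the 13 that rose and 1 of the 8 others. A match describes the letters in these windows and is not evidence of binding.

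The unfolded protein response and its relative, the amino acid response run by ATF4, moved in part. Of 28 genes 15 rose and 5 fell (median 0.60). Ppp1r15a, the phosphatase subunit GADD34 that restarts translation, had 122, 97.3 and 103 FPKM in UIR kidneys, against 18.1, 16.5 and 18.5 FPKM in sham kidneys (log2 fold 2.53 ± 0.14, limma adjusted p = 8.9e-10). The amino acid transporters Slc7a11 and Slc7a5 rose by 2.15 and 2.14. Shmt2 and Psat1, enzymes of mitochondrial folate and of serine metabolism, fell (-1.62 and -1.13), and Psat1 was higher against later sham (1.67). Calr, the chaperone calreticulin, had a log2 fold of 0.51 (limma adjusted p = 0.032) that was lost without UIR replicate 2 or 3 or sham replicate 1 or 3 (0.43, 0.51, 0.53 and 0.42), and against later sham it was lower (-0.64).

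Targets of NRF2, the factor that answers oxidants, split against day-1 sham into groups that rose and fell. Of 24 genes 12 rose and 6 fell (median 0.37). The split depended on the control, since against later sham 18 were higher and 2 lower (median 1.05). Beside Akr1b8 and Gsta1, Srxn1, which repairs oxidised peroxiredoxins, had 735, 799.9 and 582 FPKM in UIR kidneys, against 113, 84 and 104 FPKM in sham kidneys (log2 fold 2.80 ± 0.12, limma adjusted p = 2.0e-10). Gstm1, a glutathione transferase of the mu class, had 149, 102 and 85.9 FPKM in UIR kidneys, against 515, 558 and 544 FPKM in sham kidneys (log2 fold -2.29 ± 0.16, limma adjusted p = 1.0e-08). The UIR and sham values of both genes lay far apart, in opposite directions. Fth1, the ferritin heavy chain and the most abundant member, had a log2 fold of -0.01 with overlapping groups. Metallothioneins, which bind zinc and copper, were higher. Mt2 had 2148, 1185 and 1725 FPKM in UIR kidneys, against 180.3, 89.9 and 224 FPKM in sham kidneys (log2 fold 3.41 ± 0.31, limma adjusted p = 1.5e-07), Mt1 rose by 2.67 and Mt3 by 1.77. Slc39a14, a zinc importer of inflamed tissue, rose (1.58), and the zinc carriers Slc39a5 and Slc30a2 fell (-1.24 and -1.37). Of 20 genes for iron, heme and transferrin 5 rose and 10 fell, while against later sham 10 were higher and 4 lower (medians -0.33 and 0.30). Cybrd1, an iron reductase, rose (1.69), and Alas1, the first enzyme of heme synthesis, fell (-1.55) but was not called against later sham (-0.32).

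Of 21 genes known from the response to low oxygen 3 rose and 8 fell (median -0.28), shares below and above those over all genes. This balance depended on the control, since against later sham 9 were higher and 7 lower (median -0.06). The glucose transporter Slc2a1 had 192, 183 and 104.6 FPKM in UIR kidneys, against 28, 26.4 and 30.1 FPKM in sham kidneys (log2 fold 2.42 ± 0.16, limma adjusted p = 4.9e-09), and hexokinase 2, Hk2, rose by 2.25. Vegfa, the vascular growth factor, had 49.95, 40.3 and 50.7 FPKM in UIR kidneys, against 74.8, 97.9 and 71.7 FPKM in sham kidneys (log2 fold -0.77 ± 0.14, limma adjusted p = 0.00017). Bnip3, which tags mitochondria for removal, had 64, 52.8 and 44.9 FPKM in UIR kidneys, against 273, 254 and 264 FPKM in sham kidneys (log2 fold -2.28 ± 0.13, limma adjusted p = 1.5e-09). Without UIR replicate 3 the number of members that rose was 5. Among 22 targets of p53, 9 rose and 3 fell. The rises were led by the cell cycle inhibitor Cdkn1a (2.68), the kinase Plk3 (2.19) and the death gene Pmaip1 (2.15). Bax fell (-0.37), but not without UIR replicate 1 or 2 or sham replicate 1 or 2 (-0.25, -0.29, -0.35 and -0.32). It was higher against later sham (0.43), where 17 of the p53 targets were higher and 2 lower.

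Genes of the actin cytoskeleton and targets of YAP and SRF, which respond to cell spreading, rose in most cases. Of 30 members 24 rose and 1 fell (median 0.84), and the YAP targets were not counted apart from the rest. Ctgf, a matricellular YAP target, had 207, 239 and 171 FPKM in UIR kidneys, against 37.8, 27.6 and 36.6 FPKM in sham kidneys (log2 fold 2.56 ± 0.19, limma adjusted p = 1.8e-08). Ezr, which ties actin to the brush border membrane, had 774, 753 and 802 FPKM in UIR kidneys, against 135, 155 and 128 FPKM in sham kidneys (log2 fold 2.48 ± 0.08, limma adjusted p = 2.0e-11). Every UIR kidney was above every sham kidney for both. Tuba1c, an alpha-tubulin, and Tpm3, a tropomyosin, rose by 2.12 and 2.05, and cytoplasmic gamma-actin, Actg1, the most abundant member, by 0.80. Amotl2, a YAP-binding protein, fell (-0.54) and was higher against later sham (1.18). Cyr61 was not called (0.44), although it was without UIR replicate 3 (0.92).

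Claudins, which set what passes between tubule cells, moved both ways. Of 18 claudin and tight junction genes 10 rose and 5 fell. Cldn7 had 149, 236 and 201 FPKM in UIR kidneys, against 19.5, 16.5 and 22.2 FPKM in sham kidneys (log2 fold 3.25 ± 0.15, limma adjusted p = 2.3e-10). Cldn2, the cation and water pore of the proximal tubule, had 46.1, 43 and 44.2 FPKM in UIR kidneys, against 256, 235 and 243 FPKM in sham kidneys (log2 fold -2.43 ± 0.18, limma adjusted p = 1.7e-08). Cldn10, a pore of the thick ascending limb and proximal tubule, had 30.3, 21.7 and 11.2 FPKM in UIR kidneys, against 55.8, 104 and 66 FPKM in sham kidneys (log2 fold -1.84 ± 0.28, limma adjusted p = 3.1e-05). Cldn2 and Cldn10 were thus lower in each UIR kidney, and Cldn4 and Cldn7 higher. Cldn16 and Cldn19 were not called (log2 folds -0.36 and -0.37). Cldn16 was called without UIR replicate 1 (-0.55) and Cldn19 without sham replicate 1 (-0.59).

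Genes of fatty acid oxidation and targets of its regulator PPAR alpha fell widely. Of 42 tested genes 38 fell and 0 rose by limma's adjusted test (0 at an unadjusted p under 0.05), with a median log2 fold of -1.50. Acot1, a cytosolic thioesterase, had 16.5, 12.5 and 24.6 FPKM in UIR kidneys, against 242, 239 and 276 FPKM in sham kidneys (log2 fold -3.79 ± 0.22, limma adjusted p = 1.6e-09). Cyp4a10 had 55.4, 45.8 and 18.9 FPKM in UIR kidneys, against 714, 816 and 1003 FPKM in sham kidneys (log2 fold -4.48 ± 0.46, limma adjusted p = 6.1e-07), and reads of the Cyp4a family may be shared. Slc27a2, a fatty acid transporter and acyl-CoA synthetase and the most abundant member, had 443, 449.6 and 180.2 FPKM in UIR kidneys, against 1697, 1531 and 1730.5 FPKM in sham kidneys (log2 fold -2.32 ± 0.41, limma adjusted p = 0.00014). None of these groups overlapped. The size of the fall depended on the control for part of this group. The mitochondrial thioesterase Acot2 and the lipid droplet protein Cidec were lower against day-1 sham (-1.02 and -1.35) and higher against later sham (1.77 and 1.33), whereas Cyp4a14, Cyp4a10 and Acot1 were lower against either control (-2.54, -2.42 and -0.86 against later sham).

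**Figure D4:**
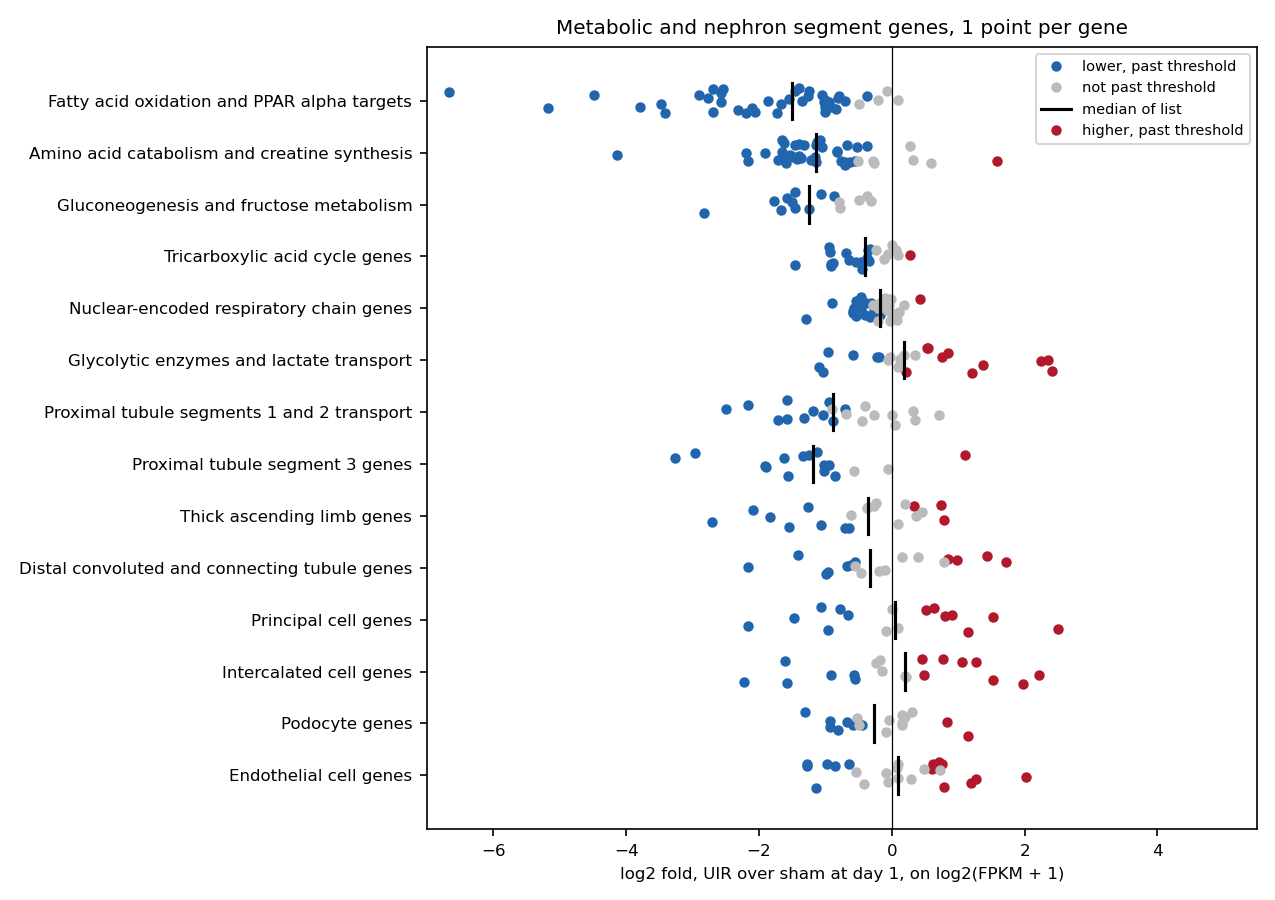
Log2 fold of UIR over sham kidneys at day 1 for each tested member of 14 lists, 1 point per gene, red where higher and blue where lower past the threshold, grey where not, with a black line at the median of the list. Fatty acid oxidation genes spread from 0.10 down to -6.67, while genes of the respiratory chain crowd between 0.42 and -1.29.

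Amino acid breakdown also fell. Of 44 genes 37 fell and 1 rose (median -1.14), or 2 rose without sham replicate 2 and 3 without UIR replicate 3. Fah and Hgd, which act after Hpd in tyrosine breakdown, had log2 folds of -2.20 and -2.17. Fah had 106, 76.8 and 42.8 FPKM in UIR kidneys, against 319, 326 and 338 FPKM in sham kidneys, with each UIR kidney below each sham kidney. Glul, which makes glutamine from ammonia, was the single rise, with 482, 482 and 369 FPKM in UIR kidneys, against 193, 91.6 and 174 FPKM in sham kidneys (log2 fold 1.59 ± 0.21, limma adjusted p = 8.4e-06). The most abundant member, Ass1 of arginine synthesis, had a log2 fold of -0.28 with an adjusted p of 0.48 by limma. In gluconeogenesis and fructose metabolism 10 of 15 genes fell and 0 rose by limma's adjusted test (0 at an unadjusted p under 0.05), with a median of -1.25. Pck1, the gate enzyme of gluconeogenesis, had 486, 390.1 and 189 FPKM in UIR kidneys, against 2441, 2029 and 2636 FPKM in sham kidneys (log2 fold -2.83 ± 0.41, limma adjusted p = 2.4e-05). Later sham kidneys held less Pck1 than day-1 sham kidneys, and against them it was not called (log2 fold -0.79, limma adjusted p = 0.058). The list as a whole was unlike Pck1, since against later sham 14 of the 15 genes were lower and 0 higher by limma's adjusted test (0 at an unadjusted p under 0.05). The median was -1.73.

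Core mitochondrial genes fell by smaller median folds. Of 22 genes of the tricarboxylic acid cycle 15 fell and 1 rose (median -0.41), and of 40 nuclear genes of the respiratory chain 17 fell and 1 rose (median -0.18). Pcx, pyruvate carboxylase, fell most among the cycle genes (-1.46), and citrate synthase, Cs, was their single rise (0.27). Ndufs7, a complex I subunit, had 59.1, 41.5 and 51.7 FPKM in UIR kidneys, against 106, 151 and 119 FPKM in sham kidneys (log2 fold -1.29 ± 0.13, limma adjusted p = 5.7e-07). Atp5b, the most abundant member, had a log2 fold of -0.11 (limma adjusted p = 0.4). Glycolysis was mixed, with 10 of 23 genes higher and 6 lower. Pkm, pyruvate kinase M, had 503, 597 and 801 FPKM in UIR kidneys, against 124, 119.8 and 119.97 FPKM in sham kidneys (log2 fold 2.35 ± 0.15, limma adjusted p = 5.6e-09), and hexokinase 1, Hk1, rose by 1.38. Pfkl, the phosphofructokinase of liver and kidney, fell (-1.03), as did Ldhd of D-lactate oxidation (-1.10). Gapdh, the most abundant member, had 3102, 2773 and 2999 FPKM in UIR kidneys, against 2726, 2685 and 2729.7 FPKM in sham kidneys, a log2 fold of 0.12 that was not called and that turned negative and was called after quantile normalization (-0.37). In cholesterol synthesis and uptake 7 of 24 genes rose and 5 fell, with the methylsterol oxidase Msmo1 highest (1.64) and the cholesterol exporter Abca1 lowest (-1.24).

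Transporters of the proximal tubule fell in both parts of that segment. Of 21 genes of segments 1 and 2, the convoluted part, 11 fell and 0 rose by limma's adjusted test (0 at an unadjusted p under 0.05), with a median of -0.88, while 6 fell and 1 rose without UIR replicate 3. Of 16 genes of segment 3, the straight part, 13 fell and 1 rose (median -1.18). The difference between these lists was not tested. Slc22a7, an organic anion transporter, had 1.18, 2.17 and 2.61 FPKM in UIR kidneys, against 41.4, 17.9 and 26.3 FPKM in sham kidneys (log2 fold -3.26 ± 0.29, limma adjusted p = 1.5e-07). Slc22a13, a urate and nicotinate transporter, had 0.25, 0.23 and 0.2 FPKM in UIR kidneys, against 8.57, 8.35 and 8.81 FPKM in sham kidneys (log2 fold -2.96 ± 0.28, limma adjusted p = 2.3e-07). Slc13a1, the sulfate transporter of the convoluted tubule, had 52.5, 47.2 and 20.4 FPKM in UIR kidneys, against 264, 204 and 184 FPKM in sham kidneys (log2 fold -2.5 ± 0.41, limma adjusted p = 6.7e-05). All 3 were lower in each UIR kidney than in any sham kidney. Slc34a1, the phosphate transporter and the most abundant convoluted-tubule member, had 1137, 887 and 445 FPKM in UIR kidneys, against 953, 1104 and 1097 FPKM in sham kidneys, and its groups overlapped (log2 fold -0.45 ± 0.54, limma adjusted p = 0.49). Against later sham it was lower (-1.94, limma adjusted p = 0.0015). Rnf24, a ring-finger protein and the single member of the segment 3 list to do so, rose (1.11) but was lower against later sham (-1.24).

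Transcription factors and cofactors of tubule cells fell more often than they rose. Of 24 tubule transcription factors and cofactors 16 fell and 6 rose (median -0.84). Hnf4a, the master regulator of the proximal tubule, had 53.1, 48.9 and 30.3 FPKM in UIR kidneys, against 230.4, 204 and 201 FPKM in sham kidneys (log2 fold -2.28 ± 0.25, limma adjusted p = 1.2e-06). Pax8, a factor of nephron development, had 174, 139 and 153 FPKM in UIR kidneys, against 58.4, 61.6 and 58.1 FPKM in sham kidneys (log2 fold 1.37 ± 0.08, limma adjusted p = 2.2e-09). Foxi1, which marks intercalated cells, had 32.3, 65.6 and 60.9 FPKM in UIR kidneys, against 16.3, 17.9 and 16.9 FPKM in sham kidneys (log2 fold 1.52 ± 0.21, limma adjusted p = 1.2e-05). Each of the 3 separated the groups fully, with Pax8 and Foxi1 high in UIR kidneys.

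In more distal segments some transcripts fell and others rose, as they did over all genes (28.5% rose and 31.1% fell). In the thick ascending limb 8 of 20 genes fell and 3 rose, shares above and below those over all genes. Kcnj1, the potassium channel ROMK, had 4.31, 7.83 and 8.06 FPKM in UIR kidneys, against 39.9, 62.9 and 44.4 FPKM in sham kidneys (log2 fold -2.71 ± 0.23, limma adjusted p = 9.7e-08). Bsnd, a subunit of the kidney chloride channels, had 2.89, 2.89 and 3.91 FPKM in UIR kidneys, against 16.6, 21.1 and 13.7 FPKM in sham kidneys (log2 fold -2.09 ± 0.17, limma adjusted p = 6.2e-08). These channel genes were far lower in UIR kidneys, whereas Umod had a log2 fold of 0.36 that was not called (limma adjusted p = 0.075). In the distal convoluted and connecting tubule 7 of 18 genes fell and 4 rose, again shares above and below those over all genes. Hsd11b2, which shields the mineralocorticoid receptor from glucocorticoids, had 22.3, 21.2 and 10.3 FPKM in UIR kidneys, against 76.1, 92 and 73.1 FPKM in sham kidneys (log2 fold -2.17 ± 0.23, limma adjusted p = 9.7e-07). Trpm6, a magnesium channel, rose (1.72). Among 16 principal cell genes 7 rose and 6 fell, both shares above those over all genes. The kinase Sgk1, which raises sodium uptake, had 170.2, 130.5 and 127 FPKM in UIR kidneys, against 44.8, 45.3 and 55.6 FPKM in sham kidneys (log2 fold 1.53 ± 0.21, limma adjusted p = 1.6e-05). Among 19 intercalated cell genes 8 rose and 6 fell, or 3 without sham replicate 2. The share that rose was above that over all genes, and the share that fell was near it. Slc26a4, the bicarbonate exchanger pendrin, had 51.5, 95.2 and 50.6 FPKM in UIR kidneys, against 11.2, 13.4 and 14.1 FPKM in sham kidneys (log2 fold 2.21 ± 0.27, limma adjusted p = 3.8e-06). Rhcg, an ammonia channel, had 8.73, 15 and 7.37 FPKM in UIR kidneys, against 45.9, 61.3 and 44.9 FPKM in sham kidneys (log2 fold -2.23 ± 0.22, limma adjusted p = 3.3e-07). The UIR values of both were clear of the sham values, pendrin above and Rhcg below.

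Enzymes and carriers that clear drugs and hormones fell widely. Of 31 cytochromes P450 20 fell and 1 rose (median -1.05; 2 rose without UIR replicate 1 or 2), of 32 conjugating enzymes 22 fell and 0 rose by limma's adjusted test (1 at an unadjusted p under 0.05, and 1 adjusted without UIR replicate 3; median -0.90), and of 32 organic ion transporters 22 fell and 5 rose (median -0.98). Cyp2a5, a hydroxylase with the near-identical copy Cyp2a4, had 51.9, 50.8 and 66.9 FPKM in UIR kidneys at day 1, against 1037, 1096 and 1019 in sham kidneys at day 1, 71.5, 56.7 and 60.2 at day 3 and 132, 73.6 and 122 at day 21. Its log2 fold of -4.20 against day-1 sham became -0.53, not called, against later sham. Cyp3a13 was the single rise, with 5.26, 7.21 and 3.99 FPKM in UIR kidneys, against 0.58, 0.34 and 0.5 FPKM in sham kidneys (log2 fold 2.11 ± 0.14, limma adjusted p = 6.8e-09). Ugt1a10, a glucuronosyltransferase that shares exons with its family, had 0.05, 0.29 and 0.05 FPKM in UIR kidneys, against 8.07, 8.85 and 8.22 FPKM in sham kidneys (log2 fold -3.06 ± 0.21, limma adjusted p = 6.8e-09). Ephx2, the soluble epoxide hydrolase, had 85.5, 72.5 and 46 FPKM in UIR kidneys, against 426, 441 and 484 FPKM in sham kidneys (log2 fold -2.75 ± 0.23, limma adjusted p = 6.0e-08). UIR values of the last pair lay below all sham values. Slco4a1, an organic anion carrier, rose (2.12), as did the export pump Abcc3 (1.35). Of 13 androgen-dependent kidney genes 10 fell, or 6 without UIR replicate 3 or without sham replicate 1, and Odc1, which makes polyamines, rose (0.93) but was lower against later sham (-0.91).

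Most neutrophil transcripts rose. Of 16 tested genes 15 rose and 1 fell (median 1.33), and the summed level of the list was 1754 to 3135 FPKM in UIR kidneys, against 131 to 285 FPKM in sham kidneys, most of it from Lcn2, which tubule cells also make. Retnlg, a secreted protein of mature neutrophils, had 40.7, 48.7 and 17.9 FPKM in UIR kidneys, against 8.16, 2.5 and 5.06 FPKM in sham kidneys (log2 fold 2.55 ± 0.34, limma adjusted p = 9.5e-06). Ngp, a granule protein, had 14.6, 5.67 and 1.2 FPKM in UIR kidneys, against 0.47, 0.16 and 1.01 FPKM in sham kidneys (log2 fold 2.02 ± 0.47, limma adjusted p = 0.0014), with log2 folds of 1.34 without UIR replicate 1 and 2.76 without UIR replicate 3. S100a9, a subunit of calprotectin, was chosen after its values were seen and had 100.4, 92.1 and 59.99 FPKM in UIR kidneys, against 35.9, 8.33 and 28.2 FPKM in sham kidneys (log2 fold 1.95 ± 0.52, limma adjusted p = 0.0044), with a log2 fold of 1.34 without sham replicate 2. Ly6g, the defining surface marker of mouse neutrophils, had 1.82, 1.44 and 1.19 FPKM in UIR kidneys, against 5.07, 4.15 and 4.45 FPKM in sham kidneys and fell (log2 fold -1.17 ± 0.15, limma adjusted p = 5.3e-06). The smaller rises of Csf3r, Fpr1 and Cxcr2 (0.71, 0.50 and 0.28) were each lost without UIR replicate 1, UIR replicate 2 or sham replicate 2. Without UIR replicate 2 their log2 folds were 0.50, 0.28 and 0.18. In sham kidneys of day 1 the neutrophil list was also above the 11.5 to 20.3 FPKM of the later sham kidneys. Cxcl2, a chemokine that draws neutrophils, had 120.2, 47.5 and 30.3 FPKM in UIR kidneys, against 1.2, 0.65 and 1.38 FPKM in sham kidneys, and Cxcl1, which shares its receptor, had 180.3, 63.2 and 41.8 FPKM in UIR kidneys, against 13.3, 7.38 and 24.5 FPKM in sham kidneys. Their log2 folds were 4.79 and 2.45, and Cxcl1 dropped to 1.86 without UIR replicate 1.

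Other immune cell lists were mixed. Of 25 monocyte and macrophage genes 9 rose and 6 fell, or 5 rose without sham replicate 2. Chil3, a secreted lectin of activated macrophages, had 10.2, 18.4 and 4.58 FPKM in UIR kidneys, against 2.4, 1.16 and 2.13 FPKM in sham kidneys (log2 fold 1.91 ± 0.34, limma adjusted p = 0.00015), and the integrin Itgam rose by 1.32. C1qa, a complement subunit made by resident macrophages, had 9.21, 6.24 and 6.52 FPKM in UIR kidneys, against 18.9, 21.1 and 16.7 FPKM in sham kidneys (log2 fold -1.27 ± 0.25, limma adjusted p = 0.00034). Lyz2, a lysozyme of myeloid cells, was called only without UIR replicate 3 (log2 folds 0.81 with and 1.2 without it). Of 17 T and NK cell genes 1 rose and 0 fell by limma's adjusted test (0 at an unadjusted p under 0.05), and 2 rose without UIR replicate 3. That rise, the chemokine Ccl5 (1.40), was lost without UIR replicate 1, UIR replicate 2 or sham replicate 1 (1.19, 1.24 and 1.25). Of 12 B and plasma cell genes 5 passed the filter, and 1 of them, Mzb1, fell (-1.08). In antigen presentation by MHC class II 6 of 10 genes fell and 0 rose by limma's adjusted test (0 at an unadjusted p under 0.05), led by H2-Ab1 with 67.1, 23.4 and 28 FPKM in UIR kidneys, against 95, 90.6 and 93.7 FPKM in sham kidneys (log2 fold -1.37 ± 0.37, limma adjusted p = 0.0042). Between 2 and 3 members fell when UIR replicate 2, UIR replicate 3 or sham replicate 1 was left out. Cd74, the invariant chain, then lost its call (log2 fold -1.11 with all libraries, -0.88, -0.95 and -0.99 without each), and H2-Aa did without UIR replicate 3 (-0.98 with and -0.78 without it).

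Among cytokine signalling genes, those of NF-kappaB feedback and the TNF family rose in number. Of 32 genes of NF-kappaB feedback and the TNF family 20 rose and 3 fell (median 0.65). Tnfrsf23, a decoy receptor, had 8.38, 15.5 and 15.7 FPKM in UIR kidneys, against 0.95, 1.03 and 0.97 FPKM in sham kidneys (log2 fold 2.79 ± 0.17, limma adjusted p = 2.6e-09), and Tnfrsf12a, the receptor of TWEAK, rose by 2.12. Of 31 interleukin and receptor genes 13 rose and 5 fell. Il1r2 and Il1rn, which both dampen IL-1, had log2 folds of 2.82 and 2.28. Il1rn had 3.44, 8.47 and 9.81 FPKM in UIR kidneys, against 0.63, 0.47 and 0.65 FPKM in sham kidneys, so that no UIR value met a sham value. Il34, a ligand of the CSF1 receptor, had a log2 fold of 0.02 against day-1 sham and of 2.45 against later sham. Of 30 chemokines 9 rose and 8 fell, shares close to those over all genes. Cxcl12, a chemokine that retains leukocytes and progenitors, had 6.17, 7.6 and 3.42 FPKM in UIR kidneys, against 26.5, 44.1 and 28.9 FPKM in sham kidneys (log2 fold -2.36 ± 0.29, limma adjusted p = 4.4e-06), below sham in each UIR kidney. Of 30 interferon-stimulated genes 1 rose and 8 fell, or 5 fell without UIR replicate 3 or sham replicate 3. Without UIR replicate 3, 4 rose, and without sham replicate 2, 2 rose. The share that fell was below that over all genes, and against later sham 12 were higher and 1 lower. Oasl1, an antiviral protein, was the rise, with 37.4, 26.5 and 25 FPKM in UIR kidneys, against 2.36, 2.15 and 2.23 FPKM in sham kidneys (log2 fold 3.21 ± 0.13, limma adjusted p = 9.0e-11).

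Clotting and complement genes were counted as separate lists. Of 20 coagulation and fibrinolysis genes 12 rose and 3 fell (median 1.2). S100a10, which with Anxa2 forms a plasmin receptor and is the most abundant member with it, rose by 1.32. F13a1, a transglutaminase of clots, rose (1.08), but not without UIR replicate 2 or sham replicate 2 (0.62 and 0.96). Of 20 complement genes 9 fell and 4 rose, or 2 rose without UIR replicate 2, sham replicate 1 or sham replicate 3. Against later sham 5 were higher and 4 lower. C3, the central component, had 10.04, 7.07 and 8.69 FPKM in UIR kidneys at day 1, against 90.8, 83.3 and 66.2 in sham kidneys at day 1, 4.05, 6.27 and 6.56 at day 3 and 2.74, 3.86 and 3.68 at day 21. It fell against day-1 sham (log2 fold -3.08 ± 0.21, limma adjusted p = 1.0e-08) and was higher against later sham (log2 fold 0.83 ± 0.19, limma adjusted p = 0.00079). C1qc of the first component also fell against day-1 sham (-1.02). Cd55, which protects cells from complement, rose (0.87) but was not called against later sham (0.26).

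Vessel and glomerular transcripts moved both ways, and few stromal transcripts were called. Of 24 endothelial genes 8 rose and 6 fell (median 0.09), shares near those over all genes. Edn1, the vasoconstrictor endothelin 1, had 9.98, 10.5 and 7.12 FPKM in UIR kidneys, against 1.99, 0.86 and 1.75 FPKM in sham kidneys (log2 fold 2.02 ± 0.21, limma adjusted p = 8.4e-07). Tek, the angiopoietin receptor TIE2, had 1.23, 2.11 and 2.76 FPKM in UIR kidneys, against 6.57, 6.28 and 5.64 FPKM in sham kidneys (log2 fold -1.27 ± 0.27, limma adjusted p = 0.00076). The UIR values of Edn1 were above and those of Tek below all sham values. Icam1, an adhesion molecule for leukocytes, fell against day-1 sham (-0.98) and was higher against later sham (1.39). Of 18 podocyte genes 7 fell and 2 rose, shares above and below those over all genes. Col4a3, a chain of the glomerular basement membrane, fell (log2 fold -1.30 ± 0.11, limma adjusted p = 1.1e-07). Of 24 fibroblast, pericyte and matrix genes 2 rose and 2 fell, shares well below those over all genes, and 20 were not called. Tnc, the matrix glycoprotein tenascin C, had 9.42, 17.5 and 10.7 FPKM in UIR kidneys, against 1.08, 1.13 and 0.96 FPKM in sham kidneys (log2 fold 2.67 ± 0.18, limma adjusted p = 6.7e-09). Myh11 of smooth muscle and Cspg4 of pericytes fell (-0.48 and -0.98), Myh11 not without UIR replicate 1 or sham replicate 1 or 2 (-0.31, -0.44 and -0.44). The number of members of this list that rose was 5 without UIR replicate 1, 5 fell without UIR replicate 3, and 1 fell without sham replicate 1 or 2.

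Of 30 ribosome biogenesis genes 18 rose and 3 fell (median 0.37). Gar1, a snoRNA-binding protein, had 20.4, 22.6 and 19.3 FPKM in UIR kidneys, against 10.4, 9.63 and 10.7 FPKM in sham kidneys (log2 fold 0.95 ± 0.11, limma adjusted p = 1.5e-06). Of 31 proteasome subunits 12 rose and 2 fell (median 0.15; 1 without UIR replicate 2 or sham replicate 3), with the cap subunit Psmd1 highest (0.84). Psmb5, a catalytic subunit, fell (-0.38), but not without UIR replicate 2 or sham replicate 3 (-0.26 and -0.34). Smox and Sat1, which break down spermine and spermidine, rose by 2.29 and 1.58. Of 30 cell cycle genes 9 rose and 3 fell, close to the shares over all genes for rises. Rrm2, which makes DNA building blocks, had 9.05, 10.7 and 13.9 FPKM in UIR kidneys, against 2.03, 1.44 and 2.18 FPKM in sham kidneys (log2 fold 2.07 ± 0.18, limma adjusted p = 1.4e-07), and the replication helicase subunit Mcm6 rose by 1.24. Tyms, thymidylate synthase, fell (log2 fold -1.02 ± 0.11, limma adjusted p = 8.3e-07). Mki67, a marker of dividing cells, had 0.2, 0.34 and 0.18 FPKM in UIR kidneys, against 0.25, 0.14 and 0.27 FPKM in sham kidneys, which is near the lowest values and overlaps.

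Of 18 genes of the circadian clock, which vary with the time of day, 6 rose and 4 fell, shares near and below those over all genes. Ciart, a clock repressor, had 36.3, 16.5 and 10.9 FPKM in UIR kidneys, against 3.84, 4.08 and 4.05 FPKM in sham kidneys (log2 fold 1.99 ± 0.44, limma adjusted p = 0.0011), and Nfil3, which opposes the PAR bZIP factors, had 29.7, 19.8 and 17.4 FPKM in UIR kidneys, against 4.75, 4.24 and 5.77 FPKM in sham kidneys (log2 fold 1.95 ± 0.33, limma adjusted p = 9.1e-05). The PAR bZIP factors Hlf and Tef and the clock gene Per3 fell (-1.99, -1.16 and -1.41). The core clock genes Arntl and Clock, chosen after their values were seen, were not called (0.55 and 0.03). The time of sacrifice is not given in the labels, and its part in the other results was not tested.

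Day 1 was then set against the later days by testing whether the difference between UIR and sham kidneys was the same. Compared with the effect at day 3, the day-1 effect was higher for 12.7% of genes and lower for 50.1%, and compared with day 21 it was higher for 16.3% and lower for 54.1%. These splits depend on scaling, since the median difference over all genes was -0.437 and -0.509 on the log2 scale. With median-of-ratios scaling the counts were 4298 higher and 3966 lower for day 3, and 5214 higher and 4734 lower for day 21, in place of 1876 and 7377, and of 2398 and 7967. Changes of single genes are to be read relative to these medians.

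Several transcripts of the proximal tubule were far closer to sham kidneys of the same day at day 1 than later. Their levels in day-1 sham kidneys were themselves below those of later sham kidneys. Slc7a13, an aspartate and glutamate transporter of segment 3, had 45.6, 59.7 and 17.8 FPKM in UIR kidneys, against 64.1, 37.5 and 68.7 FPKM in sham kidneys, with overlapping groups. Its UIR over sham log2 folds were -0.57, -8.13 and -6.51 on days 1, 3 and 21 (day 1 minus day 3, 7.56 ± 0.69, limma adjusted p = 2.3e-07). Miox, the inositol oxygenase of the proximal tubule, had 839.9, 581 and 294 FPKM in UIR kidneys, against 421, 526 and 564 FPKM in sham kidneys, with log2 folds of 0.07, -5.71 and -6.57 at the 3 days. For both genes the day-1 groups overlapped, with UIR replicate 3 lowest, and the later folds were far below 0. Mean sham levels at days 1, 3 and 21 were 56.8, 407 and 415 FPKM for Slc7a13, and 504, 2175 and 1871 FPKM for Miox. Both were lower in UIR kidneys of day 1 than in later sham kidneys (log2 folds -3.44 and -1.93). Segment 3 genes as a list had a median of 2.66 for the day-1 effect minus the day-3 effect, and 14 of 16 were higher and 1 lower by that test. All 16 were nevertheless lower in UIR kidneys of day 1 than in later sham kidneys (median -2.61). Of segments 1 and 2, 11 of 21 were higher and 1 lower. Of 24 tubule transcription factors and cofactors 2 were higher and 10 lower, and Hnf4a had log2 folds of -2.28, -1.13 and -3.13 at days 1, 3 and 21. Of 42 fatty acid oxidation genes 10 were higher and 18 lower. Of 40 respiratory chain genes 38 were higher, while 37 were lower in UIR kidneys of day 1 than in later sham kidneys. Cell cycle genes were all lower at day 1 than at day 3 by the same test, 30 of 30 with a median of -3.24. Cdc20, which starts anaphase, had log2 folds of -0.17, 5.12 and 1.42 at days 1, 3 and 21. Among macrophage genes 21 of 25 were lower at day 1 than at day 3, and Lyz2 had log2 folds of 0.81, 3.96 and 7.43. Col1a1, the main chain of type I collagen, had 1.58, 1.29 and 5.37 FPKM in UIR kidneys, against 5.85, 8.36 and 3.53 FPKM in sham kidneys and log2 folds of -0.98, 3.56 and 5.53. Its day-1 fold was called without UIR replicate 3 (-1.45) or sham replicate 3 (-1.26). C3 and Serpina1b, a protease inhibitor with near-identical copies, were negative at day 1 (-3.08 and -2.69) and positive at day 21 (5.61 and 4.98). Hspa1a had the reverse order, with 5.95, 1.06 and 0.44.

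**Figure D5:**
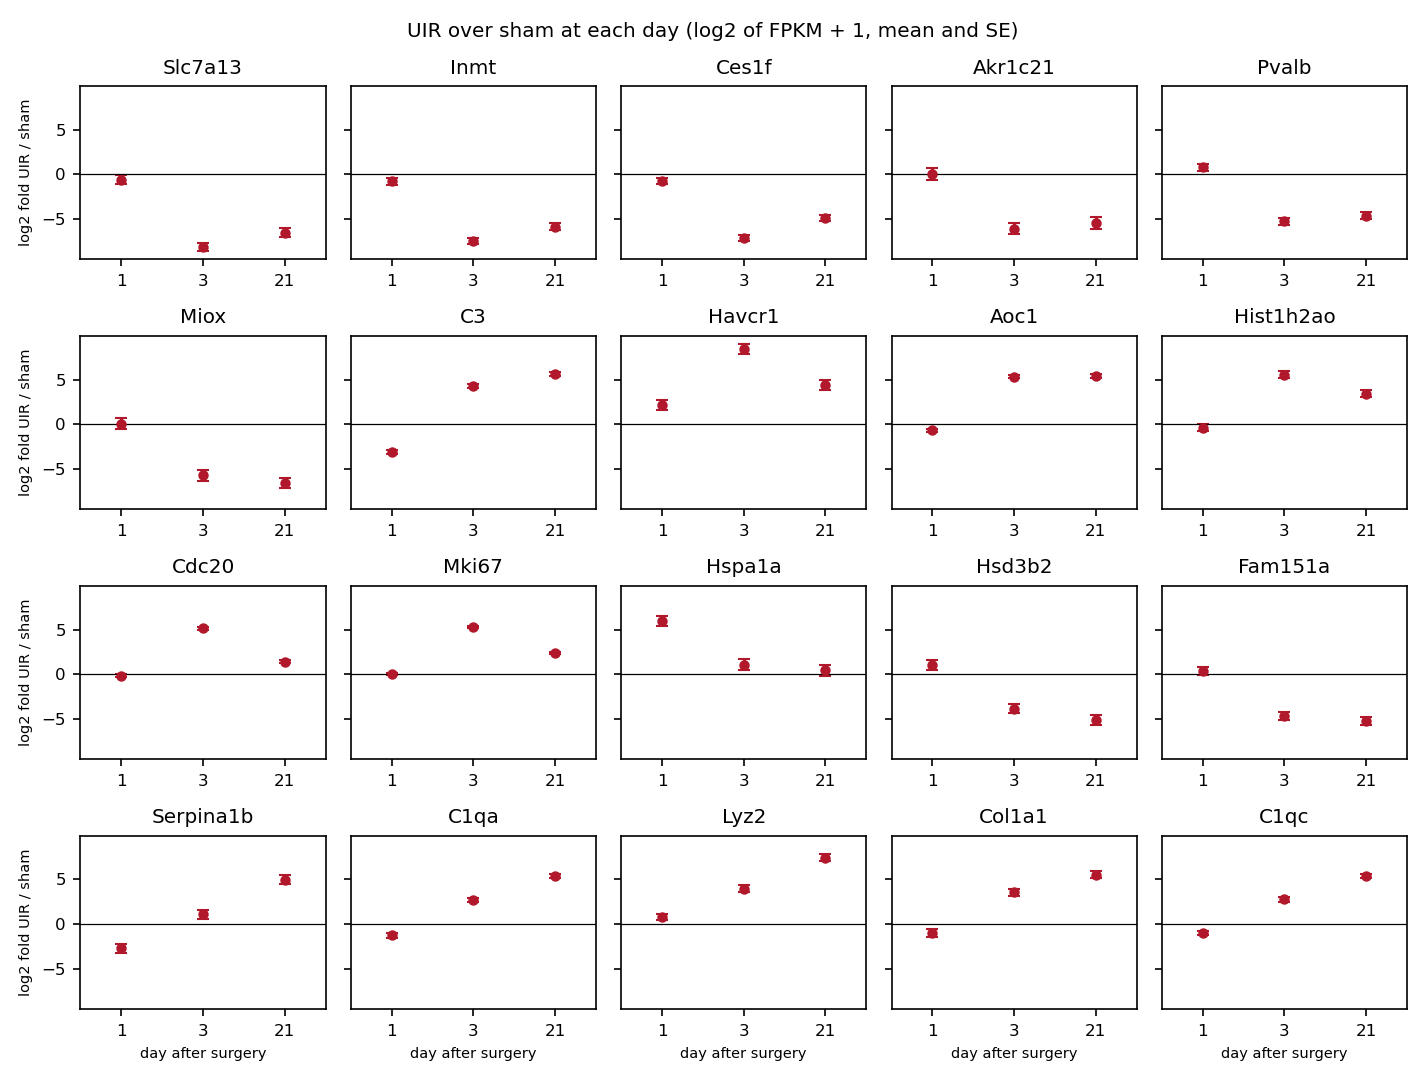
Log2 fold of UIR over sham kidneys at days 1, 3 and 21 for the 20 genes with the largest differences between the day-1 effect and a later one, as the fitted mean with its SE from 3 libraries per group. Slc7a13, Inmt, Ces1f, Akr1c21, Miox, Fam151a, Hsd3b2 and Pvalb lie between -0.78 and 1.08 at day 1 and far below 0 later. Set against later sham, which is not shown, UIR kidneys of day 1 were lower for each of them (log2 folds -1.29 to -3.44). Hspa1a is high at day 1, and C3, Col1a1, C1qa and C1qc are below 0 at day 1 and above it later. Without UIR replicate 3 the day-1 folds of Pvalb and Hsd3b2 were called, at 1.39 and 1.66, as they were without sham replicate 2 (1.00 and 1.67), and that of Inmt was called without UIR replicate 1 (-1.12).

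Transcripts that varied most among the 3 UIR kidneys of day 1 were chosen by their spread and are described without a test. Most were short noncoding RNAs or genes with close copies, namely Mir8094, Mir3470a, Snord52, Rnu7, H2-Q8, H2-Q9 and Rpl37rt. Fgb, the fibrinogen beta chain, had 9.68, 14.7 and 88.6 FPKM in UIR kidneys, against 119, 30.9 and 52.8 FPKM in sham kidneys, with UIR replicate 3 far above the other UIR kidneys and the groups overlapping. Its log2 fold was -1.26, and -2.19 without that library. Tmem174, a membrane protein of the proximal tubule, had 75.3, 56.7 and 14.4 FPKM in UIR kidneys, against 256, 262 and 234 FPKM in sham kidneys, with a log2 fold of -2.62, and -1.92 without UIR replicate 3. Egf, as given above, was likewise lowest in UIR replicate 3. Among the most abundant transcripts, Gpx3, the secreted glutathione peroxidase, had 21952, 12116 and 10112 FPKM in UIR kidneys, against 24962, 26569.8 and 25973 FPKM in sham kidneys and fell (log2 fold -0.89 ± 0.33, limma adjusted p = 0.028), but without any 1 of the libraries other than UIR replicate 1 it was not called, with log2 folds of -0.92 to -0.66. Eef1a1, a translation factor, had 3239, 3007 and 3466 FPKM in UIR kidneys, against 3014, 2968 and 3190.1 FPKM in sham kidneys, with a log2 fold of 0.08. The 10 most abundant genes of each group took 12.7% to 15.4% of the FPKM sum in UIR kidneys and 15.3% to 16.6% in sham kidneys.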

How the data were processed

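Total kidney RNA was sequenced in 18 libraries. FPKM values per gene were computed and deposited by the authors, and per the submitters' processing notes HISAT2 2.0.4, Bowtie2 2.2.5, RSEM 1.2.12 and build mm9 were used, with no role given. No source used here gives the strand setting, so antisense and overlapping genes and near-identical copies are uncertain. FPKM are not counts, so no count test was run. Genes with FPKM of at least 1 in at least 3 libraries were tested on log2(FPKM + 1) with limma 3.58.1 in R 4.3.3 (6 group means, trended moderation, Benjamini-Hochberg adjustment over 14716 genes, threshold 0.05), and the procedure was checked on simulated data. All 18 libraries share the estimate of spread. The labels do not say whether replicates are separate animals, so p-values measure the spread between libraries. Members and gene lists were chosen with earlier results of these data known. Named genes were those with the largest folds at a mean of at least 5 FPKM and no overlap, the largest of each list (4, up to 2 in the rarer direction and the most abundant), list genes whose call differed against later sham, those with the largest difference between days, the widest UIR spread and the most abundant. Alternatives were other pseudocounts, filters, scalings, weights, a replicate block and leaving out each library. Some genes that the rule names are not reported here.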

Additional observations from a re-analysis of the deposited data

Results flagged for a closer look

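Results listed here are those whose difference between UIR and sham kidneys itself differed between days by limma's test, for the genes with the largest such differences. For the day-1 effect minus the day-3 effect the log2 differences above 0 were those of Slc7a13 (7.56), Inmt (6.66), Ces1f (6.31), Akr1c21 (6.08), Pvalb (6.02) and Miox (5.78). Those below 0 were of C3 (-7.39), Havcr1 (-6.27), Aoc1 (-6.00), Hist1h2ao (-5.91), Cdc20 (-5.29) and Mki67 (-5.25). For the day-1 effect minus the day-21 effect they were above 0 for Hspa1a (5.51), Slc7a13 (5.94), Akr1c21 (5.44), Miox (6.64), Hsd3b2 (6.24) and Fam151a (5.59). They were below 0 for C3 (-8.69), Serpina1b (-7.68), C1qa (-6.66), Lyz2 (-6.63), Col1a1 (-6.52) and C1qc (-6.44). Each gene with a difference above 0, namely Slc7a13, Inmt, Ces1f, Akr1c21, Pvalb, Miox, Hspa1a, Hsd3b2 and Fam151a, had its lowest UIR value at day 1 in UIR replicate 3. Without that library these differences were larger, at 6.2 to 8.06 against day 3 and 5.93 to 7.05 against day 21. The day-1 fold of Pvalb itself was 0.78 and not called, and 1.39 and called without it. The genes with a difference above 0, other than Hspa1a, were lower in UIR kidneys of day 1 than in later sham kidneys (log2 folds -1.29 to -3.44). Reads of Serpina1b, Hist1h2ao and Hsd3b2 may be shared with near-identical copies.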

How the results depend on the processing

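Over the other settings tried the number of genes called between UIR and sham kidneys at day 1 ran from 7479 to 9359, and 46.2% to 51.0% of them were higher in UIR kidneys. Leaving out 1 library in turn gave 3820 to 4289 higher and 4146 to 4686 lower genes for UIR against sham at day 1, and 5481 to 5874 higher and 4340 to 4748 lower against later sham. The same step gave 1709 to 2001 higher and 6965 to 7512 lower genes for the day-1 effect minus the day-3 effect, and 2196 to 2468 higher and 7616 to 8086 lower for day 21. Scaling moved these day comparisons. For day 3, median-of-ratios scaling gave 4298 higher and 3966 lower genes, quantile normalization gave 3885 and 3900, and TPM gave 1197 higher. For day 21, median-of-ratios scaling gave 5214 higher and 4734 lower genes and quantile normalization gave 5090 and 4420. Among 292 gene results over 4944 gene and setting pairs, 4857 kept their call, 62 lost it, 24 gained it and 1 reversed, that of Gapdh after quantile normalization (-0.37). With a replicate block 4128 genes were higher and 4545 lower at day 1. The labels do not say whether the numbers pair the libraries. Correlations of same-numbered deviations were -0.0705, 0.0243 and -0.0639, and with 3 libraries per group they cannot settle it. With a filter at 5 FPKM 7 neutrophil genes rose, instead of 15, of fewer tested. FPKM carry no read totals, so counting error of low genes is not known.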
